A study of Homo sapiens with 12 samples.

Results

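Chemokine ligand genes were followed through an in vitro course in which H9 human embryonic stem cells were taken towards γδ T cells. The genes were the rows of the count table whose protein-coding symbol begins with CCL, CXCL, XCL or CX3CL followed by a number, which gave 43 of 36601 rows. Of these, 26 encode CC ligands, 14 CXC ligands, 2 XC ligands and 1 the CX3C ligand. PF4, PF4V1 and PPBP, the platelet CXC ligands with other names, fell outside the rule and are given only for comparison. Bulk RNA was sequenced at days 10, 15, 20 and 25, with 3 libraries a day and 12 in all. The day 10 cells are labelled hematopoietic progenitors, the day 15 and day 20 cells T progenitors and the day 25 cells mature γδ T cells. Every group came from 1 cell line, wild-type H9 (WA09), was labelled cytokine-induced and carries the same batch label, so no untreated group stands beside the course.

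The stem cells were grown on mouse embryonic fibroblast feeders. Aggregates were then given CHIR99021, BMP4, Activin A and a Rock inhibitor, next VEGF, later with bFGF, and then Flt3L, IL-7, SCF and the TGF-β receptor inhibitor SB431542 as well. From day 10 the medium was MEM-α with serum, DLL4, which activates Notch, and again SCF, Flt3L and IL-7. The labels do not say whether the 3 libraries of a day came from separate cultures, so the p-values below measure the spread between libraries, which may be technical. The libraries held 27026196 to 39811230 counts. Levels are CPM, counts relative to the library total after TMM scaling, and 3 counts in a library, taken as the floor, were worth 0.0723 to 0.145 CPM. Days were compared by edgeR's quasi-likelihood test over all 20183 genes that passed the filter on low counts, and a gene was called where the Benjamini-Hochberg adjusted p was under 0.05. The 4 comparisons share days, so a high value at day 15 enters both the comparison with day 10 and that with day 20.

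Chemokines are small secreted proteins that guide leukocytes by binding G protein-coupled receptors, and most are named for the spacing of the first cysteines. Many CC and CXC ligand genes are silent until a cell meets an inflammatory cytokine or microbial product, after which NF-kB and interferon signalling raise their transcription. Others, such as CXCL12, are made steadily by stroma and hold progenitors in bone marrow and thymus. Platelets, mast cells, macrophages and T cells each make a different mixture of ligands.

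The labelled cell type was checked against 12 T-cell genes. CD3D, CD3E and CD3G, the invariant CD3 chains of the T-cell receptor, had 0, 17 and 0 counts over the day 25 libraries. If counts are independent, 0 counts allow up to 0.0287 CPM over that day. The 12 genes summed to 3.27 to 4.15 CPM at day 10, 28.4 to 31.3 at day 15, 39.3 to 44.1 at day 20 and 15.5 to 17.8 at day 25. TRGC1 and TRGC2, the γ constant regions, held most of that sum on each day. Of the 3 CD3 genes, the libraries labelled mature γδ T cells thus held 0 counts of 2 and 0.168 ± 0.105 CPM of CD3E (SD, n = 3). These low CD3 levels go against the label, and groups are called by their day. Of the 12 T-cell genes, 7 were tested. At day 25 against day 10, 5 of these were called higher and 1 lower, against 38.6% and 36.0% of all genes tested. Their median log2 fold change there was 1.85, against 0.02 for all genes. Other lists reached higher sums. The 12 monocyte and macrophage genes summed to 152 to 163 CPM at day 10, 1381 to 1468 at day 15, 6177 to 6356 at day 20 and 7708 to 8002 at day 25, with only MSR1 at 0 counts, at day 10. The 7 megakaryocyte and platelet genes summed to 3445 to 3573 CPM at day 10, 13775 to 14291 at day 15, 251 to 257 at day 20 and 65.9 to 72.1 at day 25, with none at 0 counts on any day. In bulk RNA, more cells of a type and more RNA per cell cannot be told apart, and this holds for each level given here.

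Ligand transcripts were scarce at day 10, most abundant at day 15 and fewer again at days 20 and 25. The 43 genes together held 209 ± 6.18 CPM at day 10, 2406 ± 42.3 at day 15, 1465 ± 32.03 at day 20 and 1029 ± 19.1 at day 25 (SD, n = 3 each). The sums of different days did not overlap. Without TMM, with library-size scaling alone, the same sums were 228, 1819.7, 1705 and 1068 CPM at days 10, 15, 20 and 25, so day 15 stood closer to day 20. The number of genes at 1 CPM or more was 9 at day 10, 23 at day 15, 24 at day 20 and 19 at day 25. Genes at 100 CPM or more numbered 0, 6, 3 and 4 on those days.

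The leading genes differed between days. Levels were divided by exon length to compare genes with each other, and each gene was taken as a share of the summed CPM per kb of the 43. At day 10 CXCL2 (29.04%), CXCL3 (26.2%) and CXCL1 (12.5%) led. At day 15 CCL5 (34.2%), CXCL5 (17.1%) and CXCL2 (10.2%) led. At day 20 CXCL8 held 36.1%, followed by CCL24 with 10.6% and CCL2 with 10.5%. At day 25 CCL24 held 31.7%, followed by CXCL16 with 18.4% and CXCL8 with 16.96%. CCL5, the first gene at day 15, was at 0.742% and 0.191% of the ligand transcripts at days 20 and 25.

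**Figure D1:**
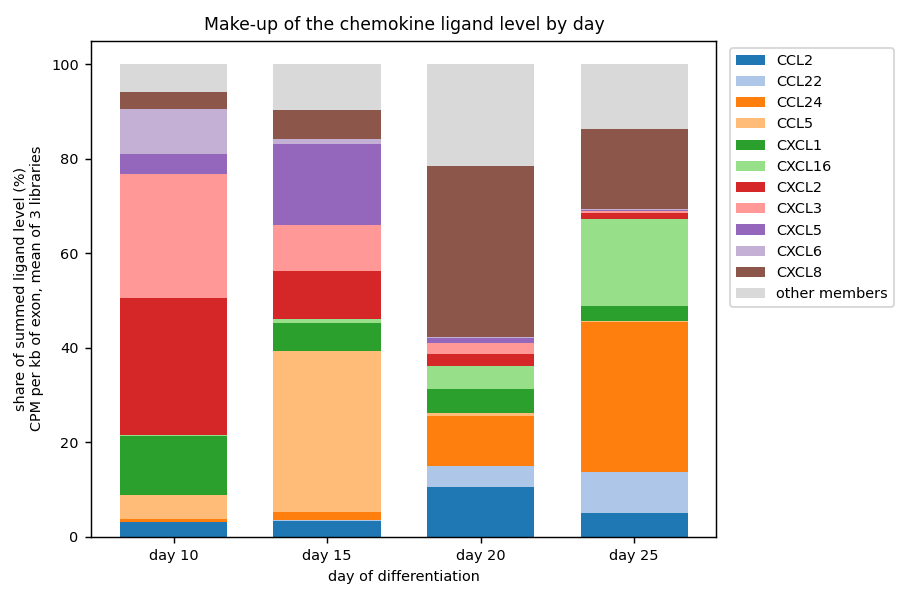
Bars give the share of the summed chemokine ligand level (percent, from CPM per kb of exon, mean of 3 libraries) held by 11 leading genes, in colour, and by all others, in grey, at days 10, 15, 20 and 25. CXCL2 and CXCL3 lead at day 10, CCL5 at day 15, CXCL8 at day 20 and CCL24 at day 25.

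Of the 43 genes, 31 passed the filter and 12 did not. Among the 31, a joint edgeR test over the 4 days called 29, while it called 90.5% of all genes tested. A gene that passes the filter only through the day on which it is high had to differ, so these counts account for the genes and support nothing further. None of the 31 had its highest mean at day 10, against 25.0% of all genes tested. The highest mean was at day 15 for 11, at day 20 for 14 and at day 25 for 6, against 34.0%, 15.1% and 25.9% of all genes tested. In 9, 12 and 4 of these, every library of that day was above every library of the other days, as it was in 26.2%, 7.13% and 16.4% of all genes tested. For day 10 that share was 17.3% of all genes.

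**Figure D2:**
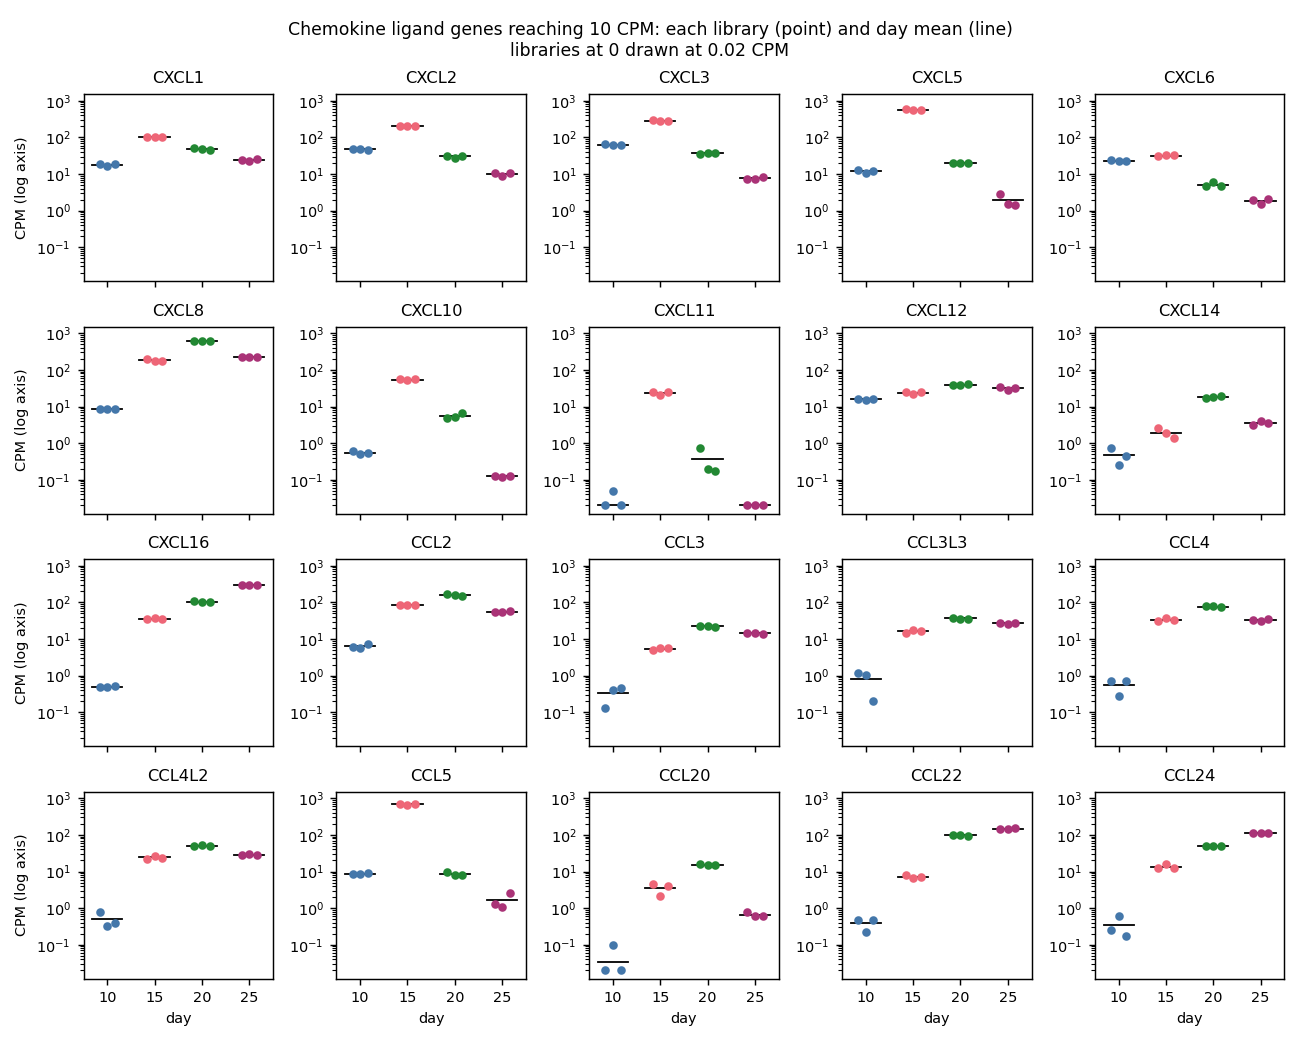
Level of the 20 ligand genes that reached 10 CPM, 1 panel a gene, as CPM on a log axis against day. Each point is 1 library, lines are day means and libraries at 0 are drawn at 0.02 CPM, so that the day 15 rise of CXCL5 and CCL5, the day 20 maximum of CXCL8 and the steps of CXCL16, CCL22 and CCL24 can be seen.

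The 6 inflammatory CXC ligands listed carry the Glu-Leu-Arg motif, attract neutrophils through CXCR1 and CXCR2, and lie in 1 cluster on chromosome 4. In order along the chromosome they are CXCL8, CXCL6, CXCL1, CXCL5, CXCL3 and CXCL2, and the platelet ligands PF4V1, PF4 and PPBP lie among them. Their promoters are shown because the 6 genes hold the same NF-kB type letters, GGAATTTCC, near the start. In RefSeq's promoter table (GRCh38.p14), which covers 250 bases before to 50 bases after each start, 31 of the 43 symbols matched in 36 windows. GGAATTTCC, searched on both strands, was in 0.461% of 35116 windows of that length. It was in the windows of 8 of the 31 matched genes, these 6 and CXCL10 and CXCL11. Genes without a window were not searched. PPBP and PF4V1 had 0 matches. The 6 windows below, 90 bases each, start 50 bases before the motif, which is in capitals, and are written 5′ to 3′ on the strand of the gene. Starts are RefSeq's and can differ from the gene ends given below, which are GENCODE's. They are chr4:73740428-73740517 on the plus strand for CXCL8, chr4:73836539-73836628 on the plus strand for CXCL6, chr4:73869265-73869354 on the plus strand for CXCL1, chr4:73998728-73998817 on the minus strand for CXCL5, chr4:74038728-74038817 on the minus strand for CXCL3 and chr4:74099233-74099322 on the minus strand for CXCL2.
CXCL8: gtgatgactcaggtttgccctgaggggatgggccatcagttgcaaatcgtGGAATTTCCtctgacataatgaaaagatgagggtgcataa
CXCL6: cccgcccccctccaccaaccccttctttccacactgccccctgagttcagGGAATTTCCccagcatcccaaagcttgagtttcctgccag
CXCL1: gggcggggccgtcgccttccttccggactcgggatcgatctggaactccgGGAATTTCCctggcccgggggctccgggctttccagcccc
CXCL5: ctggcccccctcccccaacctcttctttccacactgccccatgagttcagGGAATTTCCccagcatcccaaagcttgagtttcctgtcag
CXCL3: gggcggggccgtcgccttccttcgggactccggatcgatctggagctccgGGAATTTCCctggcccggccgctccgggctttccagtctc
CXCL2: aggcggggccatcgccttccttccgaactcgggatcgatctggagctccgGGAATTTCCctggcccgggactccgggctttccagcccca
The first base of the motif lay 91 bases before the start of CXCL8, 89 before that of CXCL6, 78 before those of CXCL1 and CXCL3, 90 before that of CXCL5 and 77 before that of CXCL2. Laid side by side, the windows of CXCL5 and CXCL6 shared 93.3% of bases, those of CXCL1 and CXCL3 92.2%, and those of CXCL1 and CXCL2 82.2%. CXCL8 shared 25.6% to 35.6% with the others. Each share includes the 9 motif bases, which are the same in every pair because the windows were laid on the motif. A match is only a run of letters, and binding there was not measured.

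All 6 were called higher at day 15 than at day 10, though CXCL6 turned lower with library-size scaling, with a median log2 fold change of 2.34 against 0.20 for all genes tested, of which 42.4% were called higher and 30.8% lower. After day 15 they parted. CXCL1, CXCL2, CXCL3, CXCL5 and CXCL6 were called lower at day 20 than at day 15 and CXCL8 was called higher, while 40.6% of all genes tested were called higher and 36.0% lower. All 6 were called lower at day 25 than at day 20, against 25.1% of all genes tested. At day 25 against day 10, CXCL8 and CXCL1 were called higher and CXCL2, CXCL3, CXCL5 and CXCL6 lower, beside 38.6% and 36.0% of all genes.

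CXCL5 (ENSG00000163735, chr4:73995642-73998779, minus strand), a neutrophil attractant also stored in platelets, had 13.1, 10.4 and 11.9 CPM in the libraries of day 10, 595, 566 and 563 at day 15, 19.9, 20.2 and 20.3 at day 20 and 2.77, 1.57 and 1.44 at day 25. The day 15 libraries stood far above all others and no days overlapped. CXCL5 was 49.02-fold higher at day 15 than at day 10 (log2 fold change 5.62 ± 0.07 (SE), edgeR adjusted p = 3.1e-29), 28.5-fold lower at day 20 than at day 15 (log2 fold change -4.83 ± 0.07 (SE), edgeR adjusted p = 1.9e-28) and 10.6-fold lower at day 25 than at day 20 (log2 fold change -3.40 ± 0.12 (SE), edgeR adjusted p = 8.2e-19). CXCL8 (ENSG00000169429, chr4:73740506-73743716, plus strand), or interleukin-8, had 8.57, 8.41 and 8.47 CPM in the libraries of day 10, 193, 178 and 179 at day 15, 629.6, 619 and 618 at day 20 and 227, 219 and 220.2 at day 25. Its highest libraries were those of day 20, and no days overlapped. CXCL8 was 21.6-fold higher at day 15 than at day 10 (log2 fold change 4.43 ± 0.05 (SE), edgeR adjusted p = 5.5e-46), 3.397-fold higher at day 20 than at day 15 (log2 fold change 1.76 ± 0.04 (SE), edgeR adjusted p = 2.1e-36) and 2.81-fold lower at day 25 than at day 20 (log2 fold change -1.49 ± 0.04 (SE), edgeR adjusted p = 9.1e-33). CXCL8 counts were 0.319 of CXCL5 counts at day 15 and 30.9 times them at day 20, within the same libraries.

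CXCL3 (ENSG00000163734, chr4:74036589-74038807, minus strand) had 64.4, 63.2 and 62.2 CPM in the libraries of day 10, 290.3, 280.1 and 287 at day 15, 36.3, 38.5 and 36.8 at day 20 and 7.16, 7.499 and 8.26 at day 25. CXCL2 (ENSG00000081041, chr4:74097035-74099293, minus strand), its close relative, had 49.7, 48.4 and 44.4 CPM in the libraries of day 10, 201, 203 and 201 at day 15, 31.8, 27.97 and 30.5 at day 20 and 10.4, 8.95 and 10.8 at day 25. Both were highest at day 15 and lowest at day 25, with no overlap between days. CXCL3 was 4.52-fold higher at day 15 than at day 10 (edgeR adjusted p = 7.3e-36) and 7.68-fold lower at day 20 than at day 15 (edgeR adjusted p = 3.4e-40). CXCL2 was 4.24-fold higher at day 15 than at day 10 (edgeR adjusted p = 6.2e-32) and 6.697-fold lower at day 20 than at day 15 (edgeR adjusted p = 7.4e-36). At day 25 CXCL3 was 8.295-fold and CXCL2 4.76-fold lower than at day 10 (edgeR adjusted p = 3.8e-37 and 5.3e-30). CXCL1 (ENSG00000163739, chr4:73869393-73871242, plus strand), which together with them was first known as the GRO genes, had 18.6, 16.3 and 18.2 CPM in the libraries of day 10, 101, 101 and 100 at day 15, 50.3, 48.2 and 46.3 at day 20 and 24.02, 22.6 and 26.02 at day 25. It was highest at day 15, with no overlap between days, and was 1.37-fold higher at day 25 than at day 10 (edgeR adjusted p = 1.8e-07). CXCL6 (ENSG00000124875, chr4:73836497-73849064, plus strand), the relative of CXCL5, had 23.5, 22.4 and 22.7 CPM in the libraries of day 10, 30.9, 32.4 and 32.6 at day 15, 4.65, 6.16 and 4.57 at day 20 and 1.95, 1.57 and 2.05 at day 25. Its day 15 libraries were the highest by a small margin, and no days overlapped. Its log2 fold change at day 15 against day 10 was 0.48 (edgeR adjusted p = 4.6e-05) but -0.05 with library-size scaling, which turned the direction and moved the median of all genes by -0.53 in that comparison. It was 6.22-fold lower at day 20 than at day 15 (edgeR adjusted p = 6.6e-24). CXCL1, CXCL2 and CXCL3, and likewise CXCL5 and CXCL6, resemble each other closely, so reads may have been split between them.

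The platelet ligands among these genes had their highest level at day 15 as well. PPBP had 593 CPM at day 10, 6766 at day 15, 88.1 at day 20 and 11.6 at day 25. PF4 had 1004 CPM at day 10, 2886 at day 15, 55.5 at day 20 and 5.44 at day 25, and PF4V1 65.9 CPM at day 10, 97.9 at day 15, 0.872 at day 20 and 0.112 at day 25. All 3 were called higher at day 15 than at day 10 and lower at day 20 than at day 15, with log2 fold changes of 3.51 and -6.26 for PPBP. The day 15 rise of PF4V1 was small and may depend on the scaling. The 7 megakaryocyte and platelet markers were likewise all called higher and then all lower, beside 42.4% and 36.0% of all genes tested, with median log2 fold changes of 1.68 and -6.20 against 0.20 and 0.10. Their part in the day 15 levels of CXCL5 and CCL5 was not tested.

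**Figure D3:**
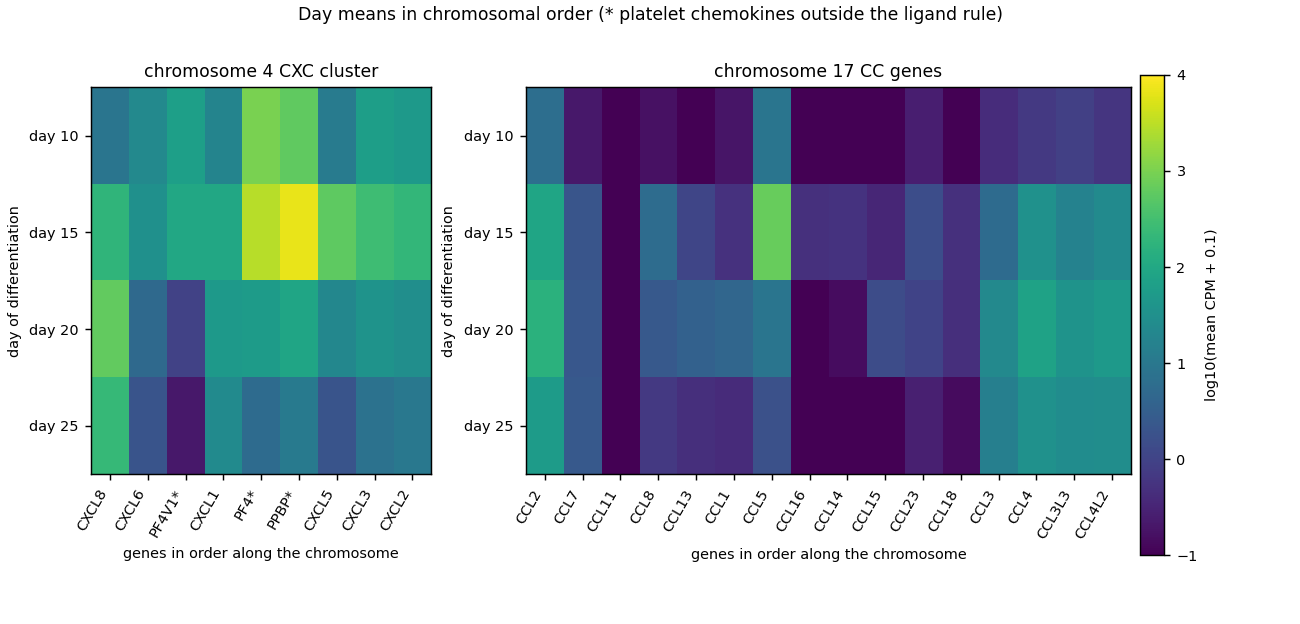
Colour gives the mean level per day, as log10(mean CPM + 0.1) over 3 libraries, of the inflammatory CXC cluster of chromosome 4 and of the CC ligand genes of chromosome 17, in order along each chromosome, and asterisks mark platelet ligands outside the rule. In the CXC cluster CXCL8 is highest at day 20 and its neighbours at day 15, and among the CC genes CCL5 is highest at day 15 and CCL2 at day 20.

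CXCL9, CXCL10 and CXCL11 attract activated T cells through CXCR3 and are induced by interferons. CXCL10 (ENSG00000169245, chr4:76021117-76023497, minus strand) had 0.603, 0.502 and 0.5401 CPM in the libraries of day 10, 55.7, 52.7 and 55.5 at day 15, 4.74, 5.16 and 6.45 at day 20 and 0.126, 0.121 and 0.128 at day 25. CXCL11 (ENSG00000169248, chr4:76033682-76041415, minus strand) had 0, 0.0502 and 0 CPM in the libraries of day 10, 24.9, 21.3 and 24.5 at day 15, 0.7603, 0.201 and 0.179 at day 20 and 0, 0 and 0 at day 25. In both, every day 15 library stood far above every library of the other days. CXCL10 was 99.4-fold higher at day 15 than at day 10 (log2 fold change 6.64 ± 0.16 (SE), edgeR adjusted p = 8.1e-34) and 10.01-fold lower at day 20 than at day 15 (log2 fold change -3.32 ± 0.11 (SE), edgeR adjusted p = 8.4e-28). CXCL11 had 1639 counts at day 15 against 2 at day 10, a ratio of 1194 after scaling with a 95% interval of 330.1 to 9871 that covers counting error only. The interval takes counts as independent, so it may be too narrow. It was 61.98-fold lower at day 20 than at day 15 (edgeR adjusted p = 2.8e-20) and had 0 counts at day 25, at least 13.2-fold lower than at day 20, against the floor over the day. Day 20 replicate 1 held 25 of the 38 counts of that day. Without it the log2 fold change at day 20 against day 15, -5.95, was -6.92 and the bound 6.61-fold, and without day 25 replicate 2, which raises the floor, the bound was 7.98-fold. CXCL9 did not pass the filter, with 0, 28, 10 and 4 counts at days 10, 15, 20 and 25. The promoters of CXCL10 and CXCL11, chr4:76023649-76023738 on the minus strand for CXCL10 and chr4:76036106-76036195 on the minus strand for CXCL11, are shown for the same reason as those above, with the same letters on the opposite strand, read as GGAAATTCC. In CXCL10 a match to an interferon-response type motif, GAAA and GAAA with any 2 bases between them, is also in capitals.
CXCL10: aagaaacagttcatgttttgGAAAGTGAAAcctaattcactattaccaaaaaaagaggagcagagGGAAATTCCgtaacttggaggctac
CXCL11: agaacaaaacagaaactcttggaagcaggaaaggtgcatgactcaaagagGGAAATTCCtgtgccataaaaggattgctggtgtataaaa
The interferon-response type motif, searched on both strands, was in 3.57% of all windows and, among the 31 ligand genes with a window, in those of CXCL10 and CXCL9.

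Among 12 listed interferon inputs, 10 were tested and 9 of them were called higher at day 15 than at day 10, against 42.4% of all genes tested. At day 20 against day 15, 6 were called lower and 4 higher, against 36.0% and 40.6% of all genes. IFNB1, which encodes interferon-β, had 0.0167 CPM at day 10, 16.8 at day 15, 0.555 at day 20 and 0 at day 25, that is 2, 1167, 56 and 0 counts. The transcription factor genes IRF1, with 15.6 CPM at day 10, 188 at day 15, 33.03 at day 20 and 33.7 at day 25, and IRF7, with 55.6 CPM at day 10, 274 at day 15, 63.04 at day 20 and 39.4 at day 25, were also highest at day 15. IRF9, the DNA-binding part of an interferon-activated complex, had 56.6 CPM at day 10, 274 at day 15, 59.5 at day 20 and 52.3 at day 25. IFNG, which encodes interferon-γ, did not pass the filter and had 3 counts, all at day 15. The receptor genes IFNGR1, IFNGR2 and IFNAR1 were highest at day 25, with 209, 72.3 and 170.4 CPM then.

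CXCL12, CXCL14 and CXCL16 were each called higher at day 15 than at day 10 and at day 20 than at day 15, and CXCL16 again at day 25 than at day 20. CXCL16 (ENSG00000161921, chr17:4733526-4739922, minus strand), the transmembrane ligand of CXCR6 and a scavenger receptor of macrophages and dendritic cells, had 0.476, 0.477 and 0.506 CPM in the libraries of day 10, 34.6, 37.7 and 36.1 at day 15, 108, 106 and 102 at day 20 and 292, 295 and 302 at day 25. Each day was above the one before it with no overlap. CXCL16 was 73.8-fold higher at day 15 than at day 10 (log2 fold change 6.21 ± 0.10 (SE), edgeR adjusted p = 1.8e-39), 2.91-fold higher at day 20 than at day 15 (edgeR adjusted p = 1.6e-29) and 2.82-fold higher at day 25 than at day 20 (edgeR adjusted p = 3.7e-30). Over the whole course it was 605-fold higher at day 25 than at day 10 (log2 fold change 9.24). CXCR6, its receptor, did not pass the filter. The 12 monocyte and macrophage genes were all called higher at day 15 than at day 10 and at day 20 than at day 15, and 10 were called higher and 2 lower at day 25 than at day 20. Of all genes tested, 42.4%, 40.6% and 24.5% were called higher in these steps and 25.1% lower in the last. Their part in the level of CXCL16 was not tested.

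CXCL12 (ENSG00000107562, chr10:44370165-44386493, minus strand), the stromal ligand of CXCR4, had 15.8, 15.4 and 15.6 CPM in the libraries of day 10, 25.4, 21.3 and 24.6 at day 15, 38.7, 39.9 and 40.4 at day 20 and 33.2, 29.1 and 32.2 at day 25. Its day 20 libraries were the highest and no compared days overlapped. The log2 fold change was 0.61 at day 15 against day 10 (edgeR adjusted p = 1.6e-08), a call lost at 0.08 with library-size scaling, and 0.74 at day 20 against day 15 (edgeR adjusted p = 2.7e-11). CXCL14 (ENSG00000145824, chr5:135570679-135579279, minus strand), made by epithelia and stroma, had 0.7304, 0.251 and 0.439 CPM in the libraries of day 10, 2.62, 1.84 and 1.37 at day 15, 17.5, 17.7 and 19.6 at day 20 and 3.18, 3.91 and 3.55 at day 25. Its day 20 libraries stood above all others, and no days overlapped. It was 9.43-fold higher at day 20 than at day 15 (log2 fold change 3.24 ± 0.20 (SE), edgeR adjusted p = 2.2e-18) and 5.14-fold lower at day 25 than at day 20 (edgeR adjusted p = 5.2e-15). The 9 stromal genes summed to 1140.0 to 1168 CPM at day 10, 1549 to 1624 at day 15, 6913 to 7025 at day 20 and 4633 to 4713 at day 25, and their part in these levels was not tested. CXCL13 and CXCL17 did not pass the filter. CXCL13, the B-cell attractant of follicles, had 0, 3, 1 and 0 counts at days 10, 15, 20 and 25. CXCL17, a mucosal ligand, had 15, 1, 11 and 4.

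The CC ligands that attract monocytes numbered 9, all on chromosome 17. All 9 were called higher at day 15 than at day 10, against 42.4% of all genes tested, with a median log2 fold change of 5.63, or 5.07 with CCL13, at 0 counts on day 10, at its lower bound, against 0.20 for all genes. At day 20 against day 15, 6 were called higher, CCL5 and CCL8 lower, and CCL7 was not called, where 40.6% of all genes were called higher and 36.0% lower. At day 25 against day 20, 8 were called lower and CCL7 was not called, where 25.1% of all genes were called lower.

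CCL5 (ENSG00000271503, chr17:35871491-35880793, minus strand), or RANTES, made by activated T cells and stored in platelets, had 8.48, 8.51 and 8.84 CPM in the libraries of day 10, 697, 652 and 705 at day 15, 9.701, 8.05 and 7.83 at day 20 and 1.29, 1.09 and 2.62 at day 25. The day 15 libraries stood far above all others, and those of days 10 and 20 overlapped. CCL5 was 79.6-fold higher at day 15 than at day 10 (log2 fold change 6.31 ± 0.11 (SE), edgeR adjusted p = 1e-15) and 80.4-fold lower at day 20 than at day 15 (log2 fold change -6.33 ± 0.11 (SE), edgeR adjusted p = 9.8e-16). At day 25 it was 5.27-fold lower than at day 20 (edgeR adjusted p = 2.4e-07). CCR4, a receptor of CCL17 and CCL22, was also highest at day 15, with 7.81 ± 0.435 CPM at day 10, 175 ± 8.67 at day 15, 2.13 ± 0.299 at day 20 and 0.306 ± 0.0194 at day 25 (SD, n = 3 each).

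CCL2 (ENSG00000108691, chr17:34255218-34257203, plus strand), the main CCR2 ligand, had 6.16, 5.798 and 7.33 CPM in the libraries of day 10, 83.6, 87.3 and 84.5 at day 15, 171, 155 and 150.2 at day 20 and 54.4, 55.5 and 57.4 at day 25. Day 20 was highest, with no overlap between days. CCL2 was 13.3-fold higher at day 15 than at day 10 (log2 fold change 3.74 ± 0.07 (SE), edgeR adjusted p = 2.3e-37), 1.87-fold higher at day 20 than at day 15 (edgeR adjusted p = 2.2e-19) and 2.85-fold lower at day 25 than at day 20 (edgeR adjusted p = 1.7e-26). Its neighbours in the cluster were lower. CCL7 had 0.107 ± 0.132 CPM at day 10, 1.94 ± 0.2 at day 15, 2.18 ± 0.415 at day 20 and 2.41 ± 0.656 at day 25 and was 18.6-fold (edgeR adjusted p = 8.2e-10) higher at day 15 than at day 10, with no later call. It had 8, 0 and 2 counts in the day 10 libraries, and its log2 fold change of 4.22 was 5.87 without day 10 replicate 1 and 3.54 without replicate 2. CCL8 had 0.0662 ± 0.0676 CPM at day 10, 5.77 ± 1.203 at day 15, 2.397 ± 0.712 at day 20 and 0.577 ± 0.402 at day 25 and was highest at day 15, 90.3-fold (edgeR adjusted p = 1.5e-14) above day 10. With 2, 0 and 4 counts at day 10, its log2 fold change of 6.50 was 7.48 without day 10 replicate 3 and 5.81 without replicate 2. CCL8 was lower at day 20 than at day 15 by 2.41-fold (edgeR adjusted p = 0.00056), a call lost with library-size scaling at a log2 fold change of -0.65. CCL13 had 0 CPM at day 10, 0.995 ± 0.223 at day 15, 3.54 ± 0.9097 at day 20 and 0.373 ± 0.115 at day 25 (SD, n = 3 each). CCL13 was at least 33.5-fold higher at day 15 than at day 10 (20.3-fold without day 10 replicate 2), 3.57-fold (edgeR adjusted p = 2.6e-05) higher at day 20 than at day 15 and 9.27-fold (edgeR adjusted p = 4.7e-09) lower at day 25 than at day 20.

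CCL4 (ENSG00000275302, chr17:36103590-36105621, plus strand), or MIP-1β, which attracts monocytes and T cells, had 0.7304, 0.276 and 0.709 CPM in the libraries of day 10, 30.5, 37.6 and 32.3 at day 15, 79.4, 77.9 and 72.6 at day 20 and 32.9, 31.4 and 35.98 at day 25. CCL4L2 (ENSG00000276070, chr17:36210924-36212878, plus strand), its near-identical copy, had 0.762, 0.326 and 0.405 CPM in the libraries of day 10, 22.1, 27.4 and 23.4 at day 15, 51.2, 52.2 and 48.3 at day 20 and 28.7, 29.5 and 27.8 at day 25. In both, day 20 was above every other day, and for CCL4 the libraries of days 15 and 25 overlapped. CCL4 was 60.7-fold higher at day 15 than at day 10 (edgeR adjusted p = 1e-30), 2.296-fold higher at day 20 than at day 15 (edgeR adjusted p = 1.3e-16) and 2.296-fold lower at day 25 than at day 20 (edgeR adjusted p = 2.2e-16). CCL3 (ENSG00000277632, chr17:36088256-36090169, minus strand), or MIP-1α, had 0.127, 0.402 and 0.473 CPM in the libraries of day 10, 5.15, 5.56 and 5.63 at day 15, 23.1, 22.1 and 21.01 at day 20 and 14.6, 14.6 and 13.9 at day 25. CCL3L3 (ENSG00000276085, chr17:36194869-36196758, minus strand), named CCL3L1 in the older annotation, had 1.17, 1.03 and 0.203 CPM in the libraries of day 10, 14.4, 17.9 and 17 at day 15, 38.5, 36.1 and 34.5 at day 20 and 28.2, 25.7 and 26.99 at day 25. Both were highest at day 20, with no overlap between compared days. CCL3 was 4.05-fold higher at day 20 than at day 15 (edgeR adjusted p = 1.3e-17) and 1.53-fold lower at day 25 than at day 20 (edgeR adjusted p = 2.2e-05). The day 25 call of CCL3L3 against day 20 (log2 fold change -0.43, edgeR adjusted p = 0.0029) was lost with DESeq2 at -0.40. Reads of such copies can fall on either gene, and whether CCL3 reads include those of the antisense gene CCL3-AS1 was not given, so the split between copies is uncertain. CCL3 counts were 0.333 of CCL3L3 counts at day 15 and 0.606 at day 20.

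CCL22 and CCL24, ligands of type 2 responses, were called higher at each step. The CC list of eotaxins and other type 2 ligands held 7 genes, of which 5 were tested. Of these, 4 were called higher at day 15 than at day 10, against 42.4% of all genes tested, and the call of 1 of them, CCL1, was lost under DESeq2, limma-voom and library-size scaling. At day 20 against day 15, 3 were called higher, against 40.6% of all genes, and at day 25 against day 20, 2 were called higher and 2 lower, against 24.5% and 25.1%. CCL22 (ENSG00000102962, chr16:57358772-57366190, plus strand), a CCR4 ligand made by macrophages and dendritic cells, had 0.476, 0.226 and 0.473 CPM in the libraries of day 10, 8.06, 6.48 and 6.99 at day 15, 101, 98.7 and 91.9 at day 20 and 145, 145 and 155 at day 25. CCL24 (ENSG00000106178, chr7:75811665-75823356, minus strand), or eotaxin-2, a CCR3 ligand that attracts eosinophils, had 0.254, 0.627 and 0.169 CPM in the libraries of day 10, 12.3, 15.7 and 12.9 at day 15, 49.7, 48.7 and 50.3 at day 20 and 116, 109.8 and 112 at day 25. In both, each day was above the one before it with no overlap. CCL22 was 18.9-fold higher at day 15 than at day 10, 13.5-fold higher at day 20 than at day 15 (log2 fold change 3.75 ± 0.08 (SE), edgeR adjusted p = 1.5e-36) and 1.53-fold higher at day 25 than at day 20 (edgeR adjusted p = 5.3e-13). CCL24 was 35.8-fold higher at day 15 than at day 10 (log2 fold change 5.16 ± 0.18 (SE), edgeR adjusted p = 4.8e-27; log2 fold change 5.96 without day 10 replicate 2), 3.65-fold higher at day 20 than at day 15 and 2.27-fold higher at day 25 than at day 20 (edgeR adjusted p = 2.5e-18). CCL17, the second CCR4 ligand, had 3, 9, 38 and 43 counts at the 4 days. The 8 genes of eosinophils, mast cells and basophils summed to 144 to 155 CPM at day 10, 8364 to 8906 at day 15, 5393 to 5572 at day 20 and 1120.4 to 1167 at day 25. The sum was highest at day 15, but most of the genes rose further. At day 20 against day 15, 5 were called higher and 3 lower, against 40.6% and 36.0% of all genes. Their median log2 fold change there was 0.90, against 0.10 for all genes. CCR3, the CCL24 receptor, had 0.0167 CPM at day 10, 1.098 at day 15, 22.5 at day 20 and 11.6 at day 25.

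CCL1, a CCR8 ligand, had 0.0894 ± 0.102 CPM at day 10, 0.408 ± 0.354 at day 15, 4.35 ± 0.791 at day 20 and 0.313 ± 0.0626 at day 25. CCL1 was 10.6-fold (edgeR adjusted p = 2.7e-07) higher at day 20 than at day 15 (log2 fold change 3.41, or 2.82 without day 15 replicate 1) and 13.9-fold (edgeR adjusted p = 6.1e-08) lower at day 25 than at day 20. Its calls against day 10, at log2 fold changes of 2.01 for day 15 and 1.63 for day 25, were lost under several alternatives, DESeq2 among them. With single libraries left out they were lost at 1.46 to 1.84 for day 15 and at 1.10 to 1.64 for day 25. Other removals raised them. Without day 10 replicate 2, which held 8 of the 10 counts of day 10, they were 3.47 for day 15 and 3.09 for day 25. Without day 15 replicate 1 the day 15 value was 2.61. CCL18 had 0, 26, 38 and 4 counts at the 4 days. CCL11 and CCL26, the other eotaxins, did not pass the filter. CCL11 had 0 counts in all 12 libraries and CCL26 had 2, both at day 20.

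CCL20 (ENSG00000115009, chr2:227805739-227817564, plus strand), the CCR6 ligand, had 0, 0.1004 and 0 CPM in the libraries of day 10, 4.599, 2.13 and 4.06 at day 15, 15.8, 14.9 and 15.2 at day 20 and 0.788, 0.603 and 0.608 at day 25. It was highest in the 3 day 20 libraries, and no days overlapped. CCL20 was 4.23-fold higher at day 20 than at day 15 (log2 fold change 2.08 ± 0.21 (SE), edgeR adjusted p = 8.2e-12) and 23.02-fold lower at day 25 than at day 20 (log2 fold change -4.52 ± 0.25 (SE), edgeR adjusted p = 2.5e-19). At day 10 it had 4 counts. CCR6, its receptor, had 0.221 CPM at day 10, 0.424 at day 15, 8.14 at day 20 and 3.42 at day 25. Of the other homing ligands, CCL27 had 27, 18, 44 and 29 counts at the 4 days and was not called among them. CCL19, CCL21, CCL25 and CCL28, ligands of lymph node, thymus and mucosa, did not pass the filter. CCL19 had 6 counts, all at day 20. CCL21 had 3, 0, 1 and 6 counts at days 10, 15, 20 and 25, CCL25 had 8, 15, 1 and 8 and CCL28 had 0, 2, 5 and 0.

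CCL23 had 0.168 ± 0.137 CPM at day 10, 1.41 ± 0.838 at day 15, 0.905 ± 0.188 at day 20 and 0.176 ± 0.0586 at day 25 and was 8.57-fold (edgeR adjusted p = 3.2e-05) higher at day 15 than at day 10 and 4.97-fold (edgeR adjusted p = 0.0017) lower at day 25 than at day 20. Its counts at day 10 were 10, 2 and 4, and the log2 fold change at day 15 against day 10, 3.10, was 3.95 without day 10 replicate 1. CCL15, like CCL23 a CCR1 ligand found in plasma, had 0 CPM at day 10, 0.237 ± 0.151 at day 15, 1.32 ± 0.177 at day 20 and 0 at day 25 (SD, n = 3 each). It had 0 counts at days 10 and 25, was at least 7.99-fold higher at day 15 than at day 10 (4.84-fold without day 10 replicate 2), 5.59-fold (edgeR adjusted p = 0.00092) higher at day 20 than at day 15 and at least 46.1-fold lower at day 25 than at day 20 (27.8-fold without day 25 replicate 2). CCL14 and CCL16, their relatives, did not pass the filter. CCL14 had 30 counts at day 15 and 5 at day 20, CCL16 had 27 at day 15, and both had 0 at the other days. CX3CL1, or fractalkine, the ligand of CX3CR1, had 0.258 ± 0.185 CPM at day 10, 0.958 ± 0.255 at day 15, 0.884 ± 0.272 at day 20 and 2.49 ± 0.695 at day 25 and was 3.88-fold (edgeR adjusted p = 0.0007) higher at day 15 than at day 10 and 2.801-fold (edgeR adjusted p = 0.0019) higher at day 25 than at day 20. XCL1, or lymphotactin, had 33, 24, 65 and 37 counts and XCL2, its near copy that did not pass the filter, 24, 4, 7 and 9. XCL1 was not called among the 4 days.

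Set beside all genes tested, the 31 genes had a median log2 fold change of 4.24 at day 15 against day 10, where all genes had 0.20. With genes at 0 counts on a day set at their bounds, that median was 4.00. There 28 were called higher, 0 lower and 3 not. With library-size scaling 25 were called higher, and the calls of CXCL6, CXCL12 and CCL1 were lost. That of CCL1 was also lost under DESeq2 and limma-voom. In the main fit 25 were at least 4-fold higher and 0 at least 4-fold lower, against 16.5% and 3.98% of all genes tested. At day 20 against day 15, 15 were called higher, 9 lower and 7 not, with a median of 0.89 against 0.10. At 4-fold or more, 6 were higher and 7 lower, against 10.4% and 12.8% of all genes. At day 25 against day 20, 4 were called higher, 23 lower and 4 not, with a median of -1.49 against -0.03. At 4-fold or more, 0 were higher and 13 lower, against 2.02% and 2.82% of all genes. The 4 called higher were CCL22, CCL24, CXCL16 and CX3CL1, and 24.5% of all genes were called higher. At day 25 against day 10, 19 were called higher, 6 lower and 6 not, with a median of 3.13, or 2.94 at the bounds, against 0.02. At 4-fold or more, 16 were higher and 6 lower, against 17.1% and 7.08% of all genes. The 6 lower were CXCL2, CXCL3, CXCL5, CXCL6, CXCL10 and CCL5. Called in either direction were 73.2%, 76.6%, 49.7% and 74.5% of all genes in these 4 comparisons. Some members pass the filter only through the day on which they are high, as CCL15 does through day 20. Their calls were built in, so these counts account for the genes and support nothing further. The counts of the shorter lists are read the same way.

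**Figure D4:**
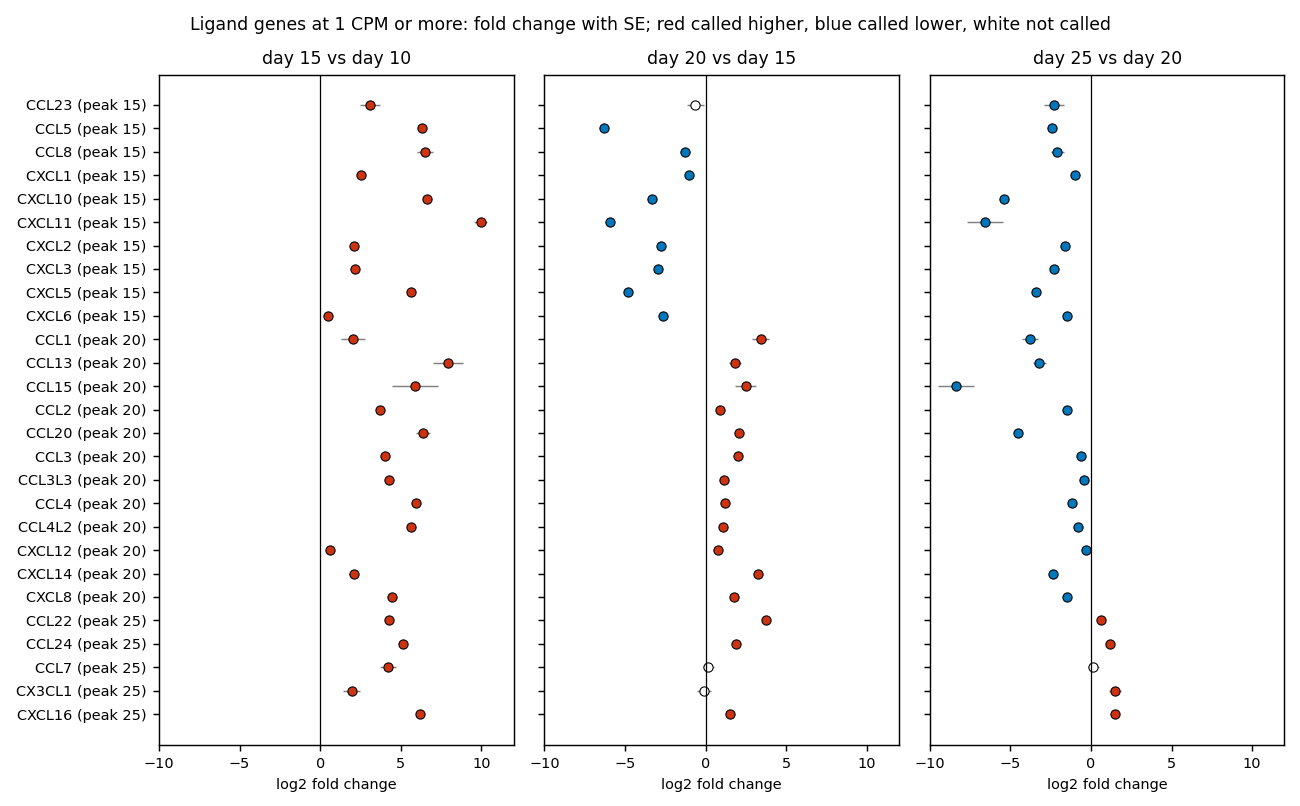
Log2 fold change (later day over earlier) of the 27 ligand genes at 1 CPM or more, ordered by the day of the highest mean, with bars of 1 SE derived from the edgeR F statistic, red for called higher, blue for called lower and white for not called. All lie above 0 at day 15 against day 10, CXCL6 by 0.48 (-0.05 with library-size scaling), and most below 0 at day 25 against day 20, and the fitted values of CXCL11, CCL13 and CCL15, with 0 to 3 counts on a day, depend on the prior count.

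Of 18 listed receptor genes, 15 were tested. At day 15 against day 10, 13 were called higher and 0 lower, beside 42.4% and 30.8% of all genes tested. At day 20 against day 15, 12 were called higher and 1, CCR4, lower, beside 40.6% and 36.0%. At day 25 against day 20, 5 were called higher and 7 lower, beside 24.5% and 25.1%. CCR1, a receptor of CCL3, CCL5 and CCL23, had 1.22 ± 0.487 CPM at day 10, 23.5 ± 1.74 at day 15, 124 ± 4.81 at day 20 and 187 ± 2.88 at day 25. CCR2, the CCL2 receptor, had 0.491 ± 0.182 CPM at day 10, 4.56 ± 1.12 at day 15, 26.9 ± 2.47 at day 20 and 11.3 ± 0.498 at day 25 (SD, n = 3 each). CCR1 was called higher in each step, while CCR2 was called lower at day 25 than at day 20. CXCR2, the receptor of the 6 inflammatory CXC ligands, had 0.466 CPM at day 10, 2.64 at day 15, 13.5 at day 20 and 18.1 at day 25, so it was highest at day 25, when all 6 were below their day 20 level. CXCR4, the CXCL12 receptor, had 9.82 CPM at day 10, 50.6 at day 15, 159.6 at day 20 and 129.7 at day 25. Of the 5 atypical receptors, which take up ligands without G protein signalling, ACKR2 had 9.76 CPM at day 10, 33.3 at day 15, 2.801 at day 20 and 1.83 at day 25, ACKR3 had 2.71 CPM at day 10, 3.69 at day 15, 24.4 at day 20 and 12.6 at day 25 and CCRL2 had 14.1 CPM at day 10, 75.1 at day 15, 28.8 at day 20 and 39.4 at day 25.

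Of 13 NF-kB inputs and feedback genes, all were called higher at day 15 than at day 10, with a median log2 fold change of 3.53, where 42.4% of all genes tested were called higher and their median was 0.20. Library-size scaling moved the median of all genes by -0.53 there. A small rise, such as that of IL1B, may therefore depend on the scaling. At day 20 against day 15, 7 were called lower and 4 higher, against 36.0% and 40.6% of all genes, and at day 25 against day 20, 9 were called lower and 3 higher, against 25.1% and 24.5%. TNFAIP3 and NFKBIA, feedback inhibitors of NF-kB, had 345 and 903 CPM at day 15, against 12.05 and 62.1 at day 10. TNF had 1.67 CPM at day 10, 38.5 at day 15, 12.7 at day 20 and 15.2 at day 25. IL1B had 12.4 CPM at day 10, 18.8 at day 15, 150.4 at day 20 and 23.8 at day 25 and IL1A 0.626 CPM at day 10, 3.89 at day 15, 23.97 at day 20 and 4.83 at day 25, so both interleukin-1 genes were highest at day 20. RELB had 5.59 CPM at day 10, 88.7 at day 15, 39.9 at day 20 and 29.4 at day 25 and BCL3 4.41 CPM at day 10, 51.3 at day 15, 52.9 at day 20 and 42.8 at day 25.

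**Figure D5:**
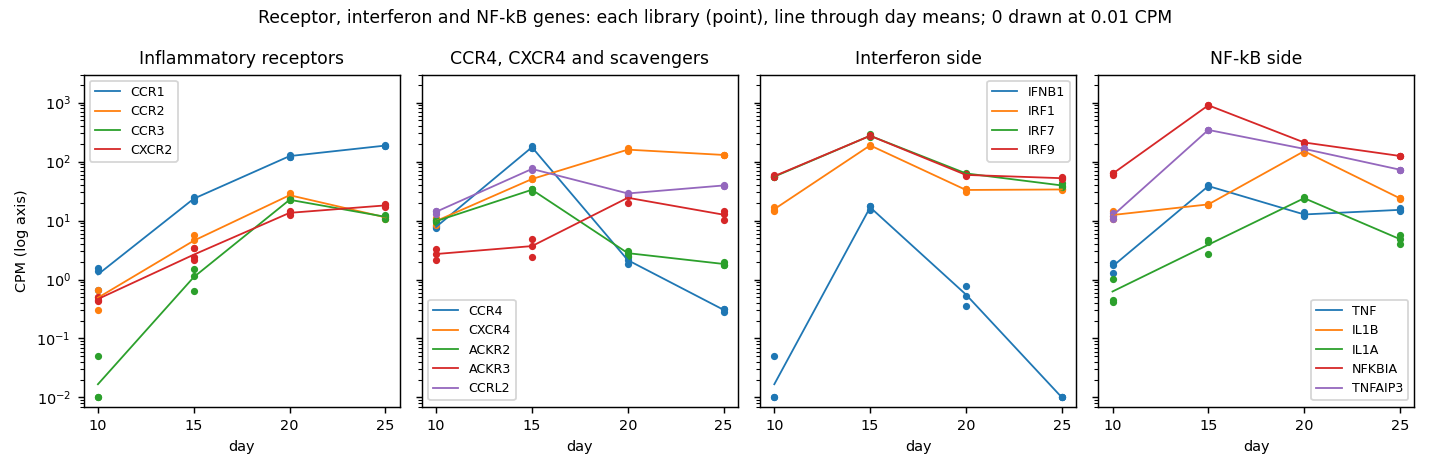
Level (CPM, log axis) against day of chemokine receptor genes and of genes from the interferon and NF-kB lists, with 1 point a library, lines through the day means and 0 drawn at 0.01 CPM. CCR1 and CXCR2 were highest at day 25, CCR4 and IFNB1 at day 15 and IL1A and IL1B at day 20.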

How the data were processed

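RNA of 12 libraries was measured by ligation-mediated sequencing, per the labels' protocols. Values were deposited as raw counts of reads by gene. The submitters' processing notes name GRCh38 as the build. How reads were aligned and counted, and whether by strand, is not given in the sources used here. Counts of 2 outnumbered counts of 1 in every library, and reads carry no molecular identifiers, so counts may not be independent. Floors, bounds and intervals treat them as independent. They cover counting error only and may understate even that.

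A table of gene names paired 25321 of 36601 rows with symbols. CCL3-AS1, the 1 symbol match that is not protein-coding, was left out. Coordinates and exon lengths are from GENCODE release 29, promoters from RefSeq (GRCh38.p14). edgeR 4.0.16 (R 4.3.3) kept 20183 genes by filterByExpr at a minimum count of 10, scaled by TMM (factors 0.753 to 1.172) and fitted all 12 libraries at once by glmQLFit (robust) without covariates, followed by glmQLFTest. The common biological coefficient of variation was 6.03%. Each SE was derived as the absolute log2 fold change divided by the square root of the F statistic. The fit was tested on simulated data. Alternatives were DESeq2 1.42.0, limma 3.58.1 (voom), other scalings and filters, a replicate block and leaving out each library. No fold is given where both days had 3 counts or fewer. Against a day with 0 counts it is a lower bound, from 3 counts summed over that day and taken as independent. Tables were handled with pandas 2.3.3, and figures drawn with matplotlib 3.10.9. Ligands reaching 10 CPM on some day are given for every library, those from 1 CPM as means and the rest as counts. Some genes of the receptor and interferon lists are not reported here one by one. The genes, lists and naming rule were chosen with earlier results of these data known.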

Additional observations from a re-analysis of the deposited data

How the results depend on the processing

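The numbers of ligands called stayed within 1.5 times of those given under each alternative run. Leaving out each library in turn gave 27 to 31 called at day 15 against day 10, 24 to 26 at day 20 against day 15, 26 to 27 at day 25 against day 20, 24 to 25 at day 25 against day 10 and 29 to 32 among the 4 days. The filter was run again each time, so more than the 31 ligands could pass, and a higher count can come from that. Whether the replicate numbers pair the libraries is not given. Deviations from the day means correlated at -0.036 to 0.019 between same-numbered libraries, with 0 of 18 pairs over 0.1, and at -0.026 to 0.043 between others. This cannot tell whether they are paired, since deviations between libraries may be technical. With the replicate number as a block, 28, 24, 27 and 24 ligands were called in the 4 comparisons and 29 among the 4 days. Of 2114 fold changes of the 27 named ligands at 1 CPM or more under the alternatives, 2084 kept their direction and call, 20 lost the call, 1 gained it and 9 turned direction. Library-size scaling moved the median of all genes by -0.53, 0.62, -0.16 and -0.08 on the log2 scale. It gave -0.05 for CXCL6 at day 15 against day 10, 0.50 for CX3CL1 and 0.79, now called, for CCL7 at day 20 against day 15, and -0.02 for CCL7 at day 25 against day 20. CX3CL1 at day 20 against day 15 was 0.11 with no filter and -0.29 to 0.12 with a library left out. Leaving one out also gave -0.09 to 0.31 for CCL7 at day 25 against day 20 and -0.34 to 0.99 for CCL23 at day 25 against day 10. CX3CL1, CCL7 and CCL23 had not been called in these comparisons. The cause was not tested. CCL1 lost its call at day 15 against day 10 under library-size scaling (1.49), DESeq2 (2.14), limma-voom (1.52) and without day 10 replicate 1 or 3 or day 15 replicate 2 or 3, and at day 25 against day 10 under library-size scaling (1.56), DESeq2 (1.76), the replicate block (1.66) and without day 10 replicate 1 or 3, day 25 replicate 1 or 3 or any day 20 library. The ligand sums with library-size scaling were 228, 1819.7, 1705 and 1068 CPM at days 10, 15, 20 and 25, and 205.0 to 210.5, 2387 to 2429, 1448 to 1479.7 and 1020.2 to 1039 CPM with a library left out.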

Other observations

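Of 9 listed genes whose products cut, shed or trim chemokines, 8 were called higher at day 25 than at day 10, against 38.6% of all genes tested. MMP12, the macrophage elastase, had 0 counts at day 10 and 4.56 ± 1.31, 19.6 ± 1.02 and 499 ± 7.33 CPM at days 15, 20 and 25 (SD, n = 3 each), called higher at each step in the edgeR fit. MMP9, gelatinase B, had 19.2 CPM at day 10, 24.5 at day 15, 68.01 at day 20 and 1163 at day 25, and MMP1, interstitial collagenase, 1.03 CPM at day 10, 3.72 at day 15, 9.71 at day 20 and 55.2 at day 25. DPP4, the cell surface peptidase that trims the first residues of several chemokines, had 0.308 CPM at day 10, 1.78 at day 15, 47.6 at day 20 and 70.4 at day 25. The neutrophil proteases ELANE, with 0.636 CPM at day 10, 261 at day 15, 584 at day 20 and 462 at day 25, and CTSG, with 0.5997 CPM at day 10, 65.3 at day 15, 409.9 at day 20 and 212 at day 25, were highest at day 20. ADAM10 is the sheddase of CXCL16 and CX3CL1. It had 449 CPM at day 10, 853 at day 15, 262 at day 20 and 396 at day 25. ADAM10 was called lower at day 25 than at day 10 by a small margin, 1.13-fold (log2 fold change -0.18). The 7 neutrophil granule genes, of which ELANE and CTSG are 2, summed to 441 to 461 CPM at day 10, 5238 to 5553 at day 15, 17298 to 17596 at day 20 and 7137 to 7304 at day 25.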
